A study of Mus musculus with 20 samples.

Results

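The genes described here act in glucose uptake, in early steps of glycolysis and on the use of pyruvate. They are 9 genes named by symbol: Slc2a1, Slc2a4, Hk1, Hk2, Pfkm, Pfkfb2, Aldoa, Ldha and Pdk4. All 9 were found in both deposited tables, among 33446 genes in the right atrium table and 41128 in the left atrium table, where they were matched by Ensembl identifier. They were chosen by name, with no threshold on a measured value.

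RNA of whole atria from adult mice, 8 to 12 weeks old, was sequenced in 20 libraries. The main text of the authors' article states that the right atria came from females and gives no sex for the left atria. The 4 groups of 5 libraries were control right atria, right atria of mice with 1 copy of the G125R missense allele of Tbx5 (Tbx5 G125R/+, called mutant below), control left atria and mutant left atria. Tbx5 is a T-box transcription factor of the atria and the conduction system, and the allele was made with CRISPR-Cas9 and is present in every cell, so atrial muscle is not the only tissue that carries it. Right atria included tissue of the sinoatrial node, and the strain is not given in the sources used here. The comparison asks which transcripts differ between mutant and control tissue of the same atrium.

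Glucose enters heart muscle mainly through a pair of carriers, the insulin-regulated GLUT4 (Slc2a4) and the constitutive GLUT1 (Slc2a1), and is trapped as glucose-6-phosphate by hexokinase. Phosphofructokinase is the controlled step of glycolysis, and its activator fructose-2,6-bisphosphate is made in heart by the product of Pfkfb2. The adult heart lives largely on fatty acids, and pyruvate dehydrogenase kinases such as Pdk4 close the entry of pyruvate into the citrate cycle when fat is the fuel.

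Depth was 17.5 to 26.8 M reads in right and 19.1 to 24.8 M reads in left libraries. The side of each atrium was visible in Bmp10. This right atrial ligand held 34603 to 47760 normalized counts in right controls and 5.67 to 30.1 in left controls. It was lower in right mutants, at 25377 to 33438 and below every control, with a log2 difference of -0.48 ± 0.12 (limma adjusted p = 0.0277), and its left difference of -0.29 did not pass (adjusted p = 0.806). The 8 atrial muscle markers were found in every library, and none of them passed the test in either atrium. Whole tissue was sequenced, so fewer cells of a type and less RNA per cell cannot be told apart.

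Across all genes tested with limma at a Benjamini-Hochberg adjusted p under 0.05, 890 of 14288 (6.23%) differed in right atria (3.09% higher and 3.14% lower) and 158 of 13192 (1.2%, of which 0.758% higher and 0.44% lower) in left atria. Of the 9 glucose genes, 1 passed in right atria, where it fell, and 0 passed in left atria. At an unadjusted p under 0.05 there were 3 in right atria and 1 in left atria, against 21.3% and 16.6% of all genes. The share of members called in right atria, 1 of 9, is close to the background of 6.23%, so the values of single genes are given and nothing is read from the count. The labels do not tie libraries to animals, and p-values measure the spread between these libraries. The median log2 fold change of the 9, mutant minus control, was -0.10 in right and 0.22 in left atria, beside -0.01 over all genes tested in each atrium. All changes below are on the scale of log2(normalized count + 1) with the standard error (SE) of the limma model and n = 5 libraries per group.

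**Figure D1:**
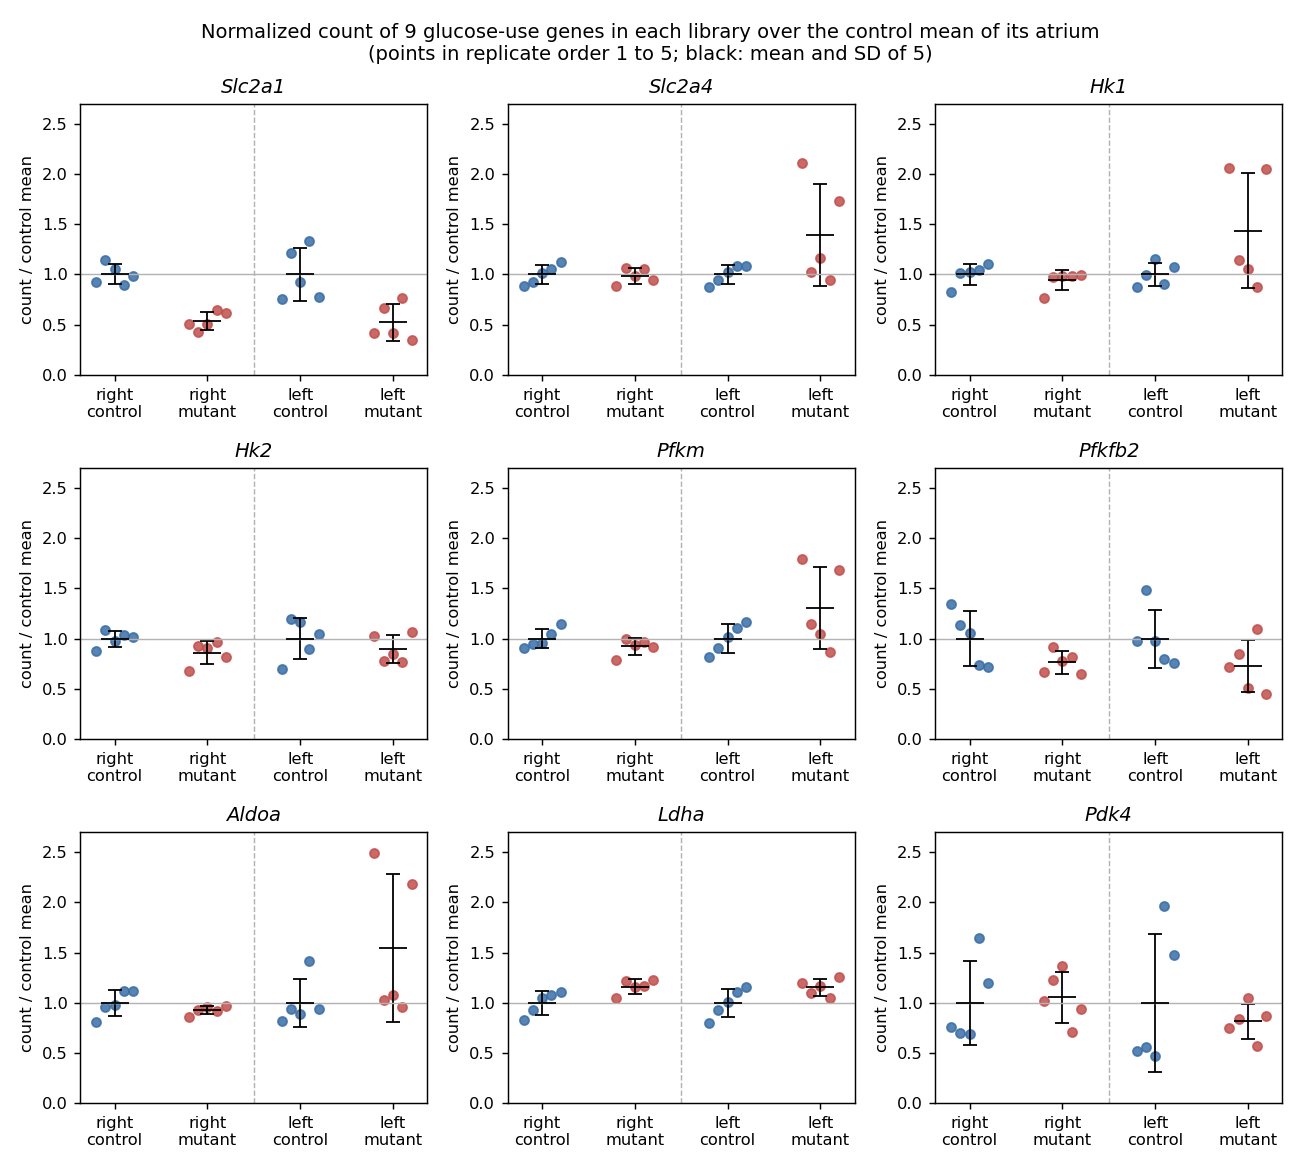
Normalized count of each of the 9 genes in each library, divided by the mean of the 5 control libraries of the same atrium (vertical axis, no unit). Blue points are controls and red points mutants, in replicate order 1 to 5, and black marks are the mean and SD of 5 libraries. Slc2a1 in right atria is the panel in which mutants and controls do not overlap, and left mutants 1 and 5 lie above the others for Slc2a4, Hk1, Pfkm and Aldoa.

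Slc2a1 encodes GLUT1, the carrier of basal glucose uptake in many cell types, including endothelium and muscle, and lies on chromosome 4 (GRCm38, 119108711 to 119137983, plus strand). It had the lowest level of the 9 genes per length of transcript and the clearest change. In right control libraries 1 to 5 its normalized counts were 368, 451, 417, 353 and 390, and in right mutants they were 202, 169, 199, 254 and 245. Every right mutant lay below every right control, a separation seen in 7.36% of all genes tested there (3.53% with mutants higher and 3.83% with mutants lower). None of the other 8 genes was separated in right atria, and none of the 9 in left atria, where 3.47% of all genes were (2.02% higher and 1.46% lower). Slc2a1 fell by 0.89 ± 0.12 (SE) on the log2 scale (limma, 95% confidence interval -1.15 to -0.64, adjusted p = 0.000405), which left 0.538 of the control level. It ranked 137 by p among the 14288 genes.

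In left atria the same gene held 44.7, 71.8, 54.9, 79.2 and 46.1 normalized counts in controls and 24.7, 39.3, 24.9, 45.7 and 20.6 in mutants. Here 4 of the 5 mutants lay below all controls, and mutant 4 lay among the lowest controls. The log2 difference was -0.94 ± 0.27 (95% confidence interval -1.52 to -0.36), which did not pass the adjustment over all genes (adjusted p = 0.143). The call depended on the libraries and on the model. Without left mutant 4 the difference was -1.09 ± 0.27 with an adjusted p of 0.046. DESeq2 on the recovered reads gave an adjusted p of 0.0455. A limma model of all 4 groups gave 0.00786, with a spread pooled over both atria (SE of 0.21 in place of 0.27). Without left mutants 1 and 5 the difference was -0.69 ± 0.28 (adjusted p = 0.649). Without the libraries of shifted clock phase described below it was -0.77 ± 0.31 (adjusted p = 0.455). Both choices were made after seeing the data. Of the alternatives, 4 passed and 20 did not, all with a negative difference. The left change minus the right change of Slc2a1 was -0.05 ± 0.29 (95% confidence interval -0.65 to 0.56, adjusted p = 0.946), an interval that is wide beside either change.

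Several cell type markers moved in the same right libraries, beside the fall of Bmp10. Of 8 endothelial markers, Kdr rose by 0.60 and the other 7 did not pass, and their summed normalized counts ran from 30352 to 50108 in controls and from 32227 to 45492 in mutants. Of 6 smooth muscle and mural markers, Cnn1 fell by 3.20 and Acta2 by 0.86, with sums of 8475 to 14076 in controls and 7302 to 10565 in mutants. Of 3 tested ventricular muscle markers, Myl3 fell by 1.53 and Myl2 by 2.06, with sums of 437 to 851 and 164 to 284, and the remaining marker of that list, Irx4, was at 0 in every right mutant library. All 8 fibroblast markers had negative differences in right atria (median -0.26), with none past the test and sums of 75422 to 111510 in controls and 53826 to 91209 in mutants. The other lists also had mostly negative right differences, none of which passed. All 6 immune markers were negative (median -0.33), with sums of 8499 to 11739 in controls and 5800 to 8528 in mutants. All 5 mesothelial markers were negative (median -0.64), with sums of 7653 to 16598 and 3661 to 13607. Among adipocyte markers 6 of 7 were negative (median -0.94), with sums of 308 to 3136 and 149 to 2328. The sums of immune, mesothelial and adipocyte markers overlapped between the groups. For immune markers this was only through mutant 5, at 8528 beside 8499 in the lowest control. The ventricular sums did not overlap. All 5 red blood cell markers were negative (median -0.65), with sums of 9621 to 50122 and 4407 to 40961, and 3 of 4 nerve or glial markers were (median -0.14). In left atria Myl3, which fell by 3.38, was the only marker of these lists to pass. The left ventricular sum was 1093 in control 5 and 132 to 150 in the other controls. All tested fibroblast, mesothelial, adipocyte and red blood cell markers were negative there too (medians -0.25, -0.69, -1.09 and -1.025). Endothelial (6 of 8) and immune markers (5 of 6) were mostly negative. Positive in left atria were 3 of 5 smooth muscle, 2 of 3 nerve or glial and all 8 atrial muscle markers. The part of these cell types in the fall of Slc2a1 was not tested.

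A promoter window of 300 bases around the annotated start was taken from RefSeq (GRCm38.p6) for 8 of the 9 genes, all but Slc2a4. The letter patterns searched on both strands were GGTGTG, the core of the site that T-box factors bind, GGGCGG, the GC box of Sp and Krüppel-like factors, and CACGTG, the E-box bound by clock and Myc proteins. The promoters of the called gene, of Pfkfb2 and of Pdk4 are shown because the results below turn on them, with every match to a pattern in capitals. Of the 3 annotated starts of Pfkfb2, the one that holds an E-box is printed.
Slc2a1, chr4:119108495-119108794, plus strand: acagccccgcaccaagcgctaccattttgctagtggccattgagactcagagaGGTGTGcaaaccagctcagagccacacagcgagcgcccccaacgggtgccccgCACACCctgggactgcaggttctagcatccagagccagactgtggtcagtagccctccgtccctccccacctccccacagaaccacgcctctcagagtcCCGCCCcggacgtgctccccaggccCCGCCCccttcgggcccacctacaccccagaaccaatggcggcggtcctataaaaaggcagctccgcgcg
Pfkfb2, chr1:130715772-130716071, minus strand: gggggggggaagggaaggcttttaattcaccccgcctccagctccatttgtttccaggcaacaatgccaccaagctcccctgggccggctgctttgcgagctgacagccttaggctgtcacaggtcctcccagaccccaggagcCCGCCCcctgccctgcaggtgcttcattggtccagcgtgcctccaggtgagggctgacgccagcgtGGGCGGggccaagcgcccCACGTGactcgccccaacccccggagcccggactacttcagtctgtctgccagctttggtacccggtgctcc
Pdk4, chr6:5496229-5496528, minus strand: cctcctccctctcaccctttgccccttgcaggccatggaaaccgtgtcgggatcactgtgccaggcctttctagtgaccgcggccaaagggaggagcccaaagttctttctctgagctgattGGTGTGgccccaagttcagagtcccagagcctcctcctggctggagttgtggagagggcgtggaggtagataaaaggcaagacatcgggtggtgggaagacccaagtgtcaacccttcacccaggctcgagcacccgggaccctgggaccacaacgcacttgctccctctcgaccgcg
The Slc2a1 window holds the T-box core 2 times, 1 on each strand, and the GC box 2 times. Pfkfb2 holds the GC box 2 times and the E-box 1 time, and Pdk4 holds a single T-box core. Over the 17 promoter windows of the 8 genes, GGTGTG was in 6 windows, GGGCGG in 6 and CACGTG in 3, of Ldha, Pfkfb2 and Pfkm. Among all 32851 promoters of the table the shares were 19.0%, 35.7% and 7.15%. A match is a run of letters and not a measured binding site.

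Slc2a4 encodes GLUT4, the carrier that insulin and contraction bring to the surface of muscle cells (chromosome 11, 69942539 to 69948188, minus strand). Its counts in right controls were 6455, 6685, 7386, 7673 and 8143, and in right mutants 6395, 7705, 7151, 7659 and 6846. Mutant 1 lay just below the lowest control and the other 4 inside the range of the controls, with a log2 difference of -0.02 ± 0.08 (95% confidence interval -0.19 to 0.15, adjusted p = 0.906). Left controls held 715, 773, 842, 886 and 885 and left mutants 1730, 839, 951, 771 and 1421, so that the 2 highest left libraries were mutants 1 and 5. The left difference was 0.41 ± 0.21 (adjusted p = 0.324).

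The balance of the carriers was measured as the log2 ratio of Slc2a4 to Slc2a1 within a library, which does not depend on the scaling of that library. In right atria it was 4.20 ± 0.22 (SD, n = 5) in controls and 5.07 ± 0.28 in mutants, with no overlap (control maximum 4.44, mutant minimum 4.80). The ratio rose 1.83-fold (exact two-sided permutation p = 0.00794, the smallest that 5 against 5 libraries allow, adjusted p = 0.0397 over 10 ratios). Slc2a4 itself was at -0.02 in right atria, so this rise mostly restates the fall of Slc2a1. Without right mutant 1, 3, 4 or 5 the rise was 0.85 to 0.94 on the log2 scale and the adjusted permutation p was 0.0529, which does not pass. Leaving out a mutant cannot make the groups overlap, and the exact p can take only a few values with so few libraries. These losses therefore cannot show whether the rise rests on those libraries. Of the alternatives run for this right ratio, 7 kept the call and 4 lost it. In left atria the ratio was 3.80 ± 0.35 in controls and 5.15 ± 0.93 in mutants. This difference of 1.35 had an exact permutation p of 0.0159 and an adjusted p of 0.0529, which does not pass.

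Hexokinase was measured through Hk1, the isoform of most tissues (chromosome 10, 62268855 to 62379908, minus strand), and Hk2, the isoform of insulin-sensitive muscle (chromosome 6, 82725025 to 82774454, minus strand). Right controls held 4233, 5211, 5296, 5392 and 5676 normalized counts of Hk1, and right mutants 3954, 5025, 5100, 5106 and 5135. Mutant 1 was the lowest library and the other 4 mutants lay close together inside the range of the controls. The right difference of Hk1 was -0.09 ± 0.09 (adjusted p = 0.637).

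Hk2 stood at 5348, 6670, 5999, 6357 and 6212 in right controls and at 4178, 5687, 5521, 5946 and 5018 in right mutants. Mutants 1 and 5 lay below all controls and the other 3 overlapped with them. The difference was -0.22 ± 0.10, with an unadjusted p of 0.0374 and an adjusted p of 0.205. In left atria Hk2 ran from 1600 to 2725 in controls and from 1753 to 2431 in mutants, with full overlap and a difference of -0.14 ± 0.17 (adjusted p = 0.635). The log2 ratio of Hk2 to Hk1 was lower by 0.14 in right mutants (exact permutation p = 0.0556, adjusted p = 0.111) and by 0.58 in left mutants (exact permutation p = 0.0238, adjusted p = 0.0595), and neither passed.

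Pfkm encodes the muscle subunit of phosphofructokinase (chromosome 15, 98092589 to 98132451, plus strand). Right controls held 19603, 20368, 20660, 22527 and 24777 and right mutants 16956, 21622, 20203, 20950 and 19888. The groups overlapped except for mutant 1, and the difference was -0.12 ± 0.09 (adjusted p = 0.498). Against the liver and platelet subunits (Pfkl plus Pfkp), the log2 ratio of Pfkm was 2.23 in right controls and 2.11 in right mutants (exact permutation p = 0.111), and 2.37 and 2.47 in left atria (exact permutation p = 0.587).

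Aldoa, the aldolase of muscle and red cells, had the highest level per length of the 9 genes in right atria (chromosome 7, 126795234 to 126800751, minus strand). Right controls held 33449, 39485, 40221, 46112 and 46056 and right mutants 35378, 38313, 39420, 37818 and 39861. All right mutants lay inside the range of the controls, at a difference of -0.10 ± 0.10 (95% confidence interval -0.32 to 0.13, adjusted p = 0.624).

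In left atria Slc2a4, Hk1, Pfkm and Aldoa showed a common pattern. Hk1 held 488, 552, 642, 502 and 598 in left controls and 1145, 636, 585, 488 and 1138 in left mutants. Pfkm held 1948, 2171, 2430, 2641 and 2788, and in mutants 4304, 2748, 2499, 2074 and 4038. Aldoa held 1728, 1975, 1871, 2983 and 1983, and in mutants 5254, 2159, 2270, 2018 and 4607. In each of these genes left mutants 1 and 5 were the 2 highest of 10 libraries, and mutants 2, 3 and 4 lay in or near the range of the controls. The differences were 0.44 ± 0.23 for Hk1, 0.34 ± 0.20 for Pfkm and 0.53 ± 0.27 for Aldoa (adjusted p = 0.334, 0.371 and 0.324), and none passed. With mutants 1 and 5 left out, a choice made after seeing the data, they were 0.03, 0.03 and 0.05, and that of Slc2a4 was 0.06.

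The same pair of left mutants was also high in atrial muscle markers. Relative to the mean of left controls, Tnnt2 stood at 2.89 in mutant 1 and 2.17 in mutant 5, Myh6 at 2.20 and 1.86, and Myl7 at 1.92 and 1.63. Nppa and Ttn did not follow, with 0.764 and 0.933 for Nppa and 1.13 and 0.883 for Ttn. Over all 8 markers, whose sum is mostly Ttn, left controls ran from 0.677 to 1.25 and left mutants from 0.62 to 1.33 of the control mean. No marker of the 8 was at 0 in a library. Left mutants 1 and 5 also had the highest left size factors, 1.41 and 1.26, beside 0.593 to 1.16 in the other left libraries. Mitochondrial rRNA took 19.5% of reads in mutant 1, the lowest left share, and 29.5% in mutant 5. The part of muscle content or of these library traits in the left values of the 4 genes was not tested.

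**Figure D2:**
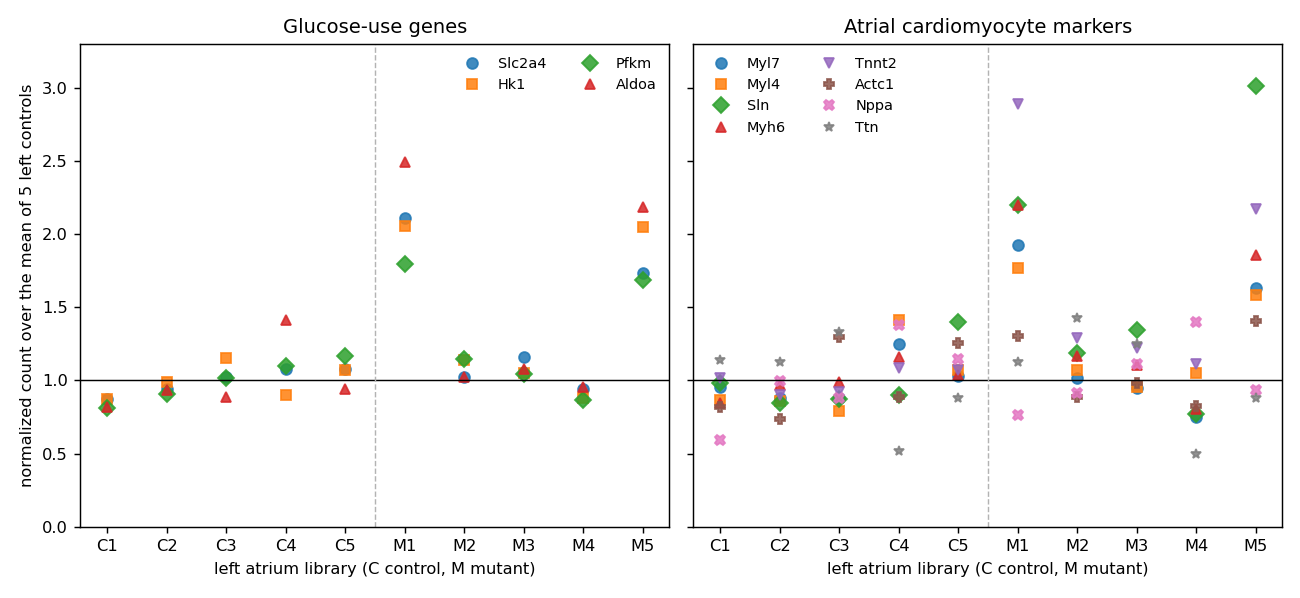
Normalized count over the mean of the 5 left controls (vertical axis, no unit) for each left atrium library (horizontal axis, C1 to C5 controls and M1 to M5 mutants). The left panel plots Slc2a4, Hk1, Pfkm and Aldoa, and the right panel the 8 atrial muscle markers. Libraries M1 and M5 stand between 1.69 and 2.49 in the 4 glucose genes, above all controls.

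Across the 10 libraries of an atrium, deviations from the genotype means of these 4 genes were correlated pair by pair with Pearson coefficients of 0.815 to 0.945 in left and 0.749 to 0.925 in right atria over 6 pairs. The points are libraries that share depth and tissue content, and the values are a description. In left atria all 4 genes were highest in mutants 1 and 5, and the weight of those libraries in the left coefficients was not tested. The libraries of each atrium also form separate sets of clock phase, and coefficients within a set are not given. Both limits hold for the nearest genes below, whose means include the left coefficients. By the same measure, averaged over both atria and among 9340 genes, the gene most like Pfkm was Pygm, the muscle glycogen phosphorylase (mean coefficient 0.98), followed by Mgrn1 (0.953) and Got2 (0.952). Slc2a4 was most like Pygb (0.97), the brain-type glycogen phosphorylase, Hk1 most like Gata4 (0.948), a cardiac transcription factor, and Aldoa most like Adcy5 (0.951), an adenylyl cyclase of heart. Hk2 was most like Lmod3 (0.884). Ldha was most like Schip1 (0.909). The genes nearest to Slc2a1 were Smad6 (0.867), an inhibitor of BMP signalling, Zfp938 (0.862) and Fam18b (0.83).

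Ldha, the lactate dehydrogenase subunit that favours lactate formation (chromosome 7, 46841475 to 46855627, plus strand), had a positive difference in both atria that did not pass the test. Right controls held 7993, 8920, 10129, 10395 and 10616 and right mutants 10052, 11755, 11112, 11209 and 11766. Of the 5 right mutants, 4 lay above all controls, and the difference was 0.22 ± 0.09 with an unadjusted p of 0.0233 that did not pass adjustment (adjusted p = 0.161). Under quantile normalization it passed, at 0.32 ± 0.06 with an adjusted p of 0.00865. In left atria 3 of 5 mutants lay above all controls, at 2630 to 3160 against 1999 to 2904, and the difference was 0.22 ± 0.14 (adjusted p = 0.399).

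The ratio of Ldha to Ldhb, the subunit of oxidative muscle, gave a sharper separation in right atria. Its log2 value was 0.24 ± 0.11 (SD, n = 5) in controls and 0.50 ± 0.05 in mutants, and the highest control at 0.44 lay below the lowest mutant at 0.45. The ratio rose 1.20-fold (exact two-sided permutation p = 0.00794, adjusted p = 0.0397). Without right mutant 1, 3, 4 or 5 the adjusted p was 0.0529 here too, at a rise of 0.24 to 0.27 on the log2 scale. The same limit of the permutation test holds here. In left atria it was 0.47 ± 0.31 and 0.50 ± 0.53 (exact permutation p = 0.929).

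**Figure D3:**
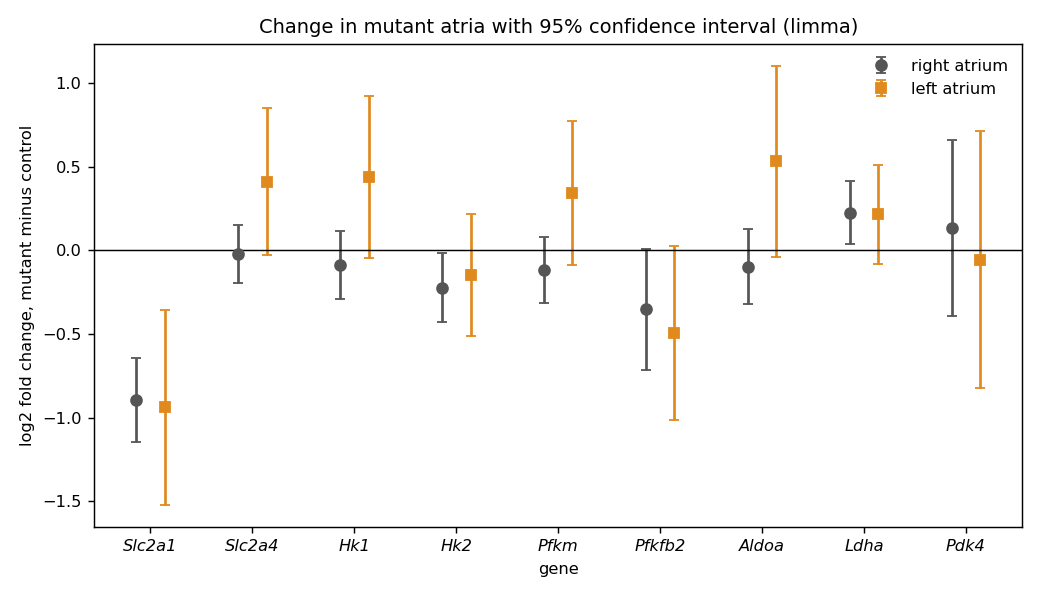
Log2 fold change, mutant minus control, of the 9 genes with its 95% confidence interval from limma, in right atria (grey circles) and left atria (orange squares), each from 5 mutant and 5 control libraries. Slc2a1 is at -0.89 in right and -0.94 in left atria, and of the other intervals those of right Hk2 and right Ldha leave out 0 before adjustment.

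Pfkfb2 makes and breaks fructose-2,6-bisphosphate in heart muscle (chromosome 1, 130689182 to 130729253, minus strand). Right controls held 1868, 1573, 1469, 1019 and 993 normalized counts and right mutants 924, 1273, 1076, 1138 and 892. Controls 1, 2 and 3 lay above every mutant, while controls 4 and 5 lay among the mutants. The difference was -0.35 ± 0.17 (adjusted p = 0.246). In left atria controls held 767, 1165, 765, 629 and 594 and mutants 564, 666, 402, 857 and 354, with a difference of -0.49 ± 0.24 (adjusted p = 0.316).

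Pdk4, the kinase that shuts off pyruvate dehydrogenase in fasting, was among the most variable genes between libraries of the same group (chromosome 6, 5483351 to 5496309, minus strand). Right controls held 7395, 6891, 6742, 16136 and 11761 and right mutants 10017, 12042, 13395, 6970 and 9175. Left controls held 6294, 6729, 5656, 23693 and 17804 and left mutants 9065, 10107, 12603, 6872 and 10498. Controls 4 and 5 were the highest controls of either atrium, mutant 3 the highest mutant of both and mutant 4 the lowest of both, and the labels do not say whether libraries of 1 number come from 1 animal. The spread within groups (SD of 0.47 on the log2 scale in right and 0.72 in left atria) was higher than that of 89.9% and 93.0% of all genes. Its differences were 0.13 ± 0.24 (95% confidence interval -0.39 to 0.66, adjusted p = 0.795) in right and -0.06 ± 0.36 (-0.83 to 0.71, adjusted p = 0.94) in left atria.

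The levels of these genes are set here beside the circadian phase of the libraries. A clock score was formed in each library as the mean log2 level of Arntl, Npas2, Clock, Cry1 and Nfil3 minus that of 10 genes of the opposite phase, among them Dbp and Per1 to Per3. In right atria the score was -0.24 and 0.41 in controls 4 and 5 and -0.32 in mutant 5, and between -2.16 and -1.45 in the other 7 libraries. In left atria the same numbers stood at 1.33, 1.88 and 1.14, and the other 7 between -1.16 and -0.37. The libraries thus fell into a set of 7 and a set of 3 in both atria, and a correlation over all 10 could not be given. Among controls of either atrium Pdk4 was highest in controls 4 and 5, and Pfkfb2 was lowest in right controls 4 and 5 and right mutants 1 and 5. Mutant 5, also of shifted phase, held 9175 of Pdk4 in right and 10498 in left atria, inside the range of the other mutants. Right mutant 1, with low Pfkfb2, was not of shifted phase (score of -1.59).

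**Figure D4:**
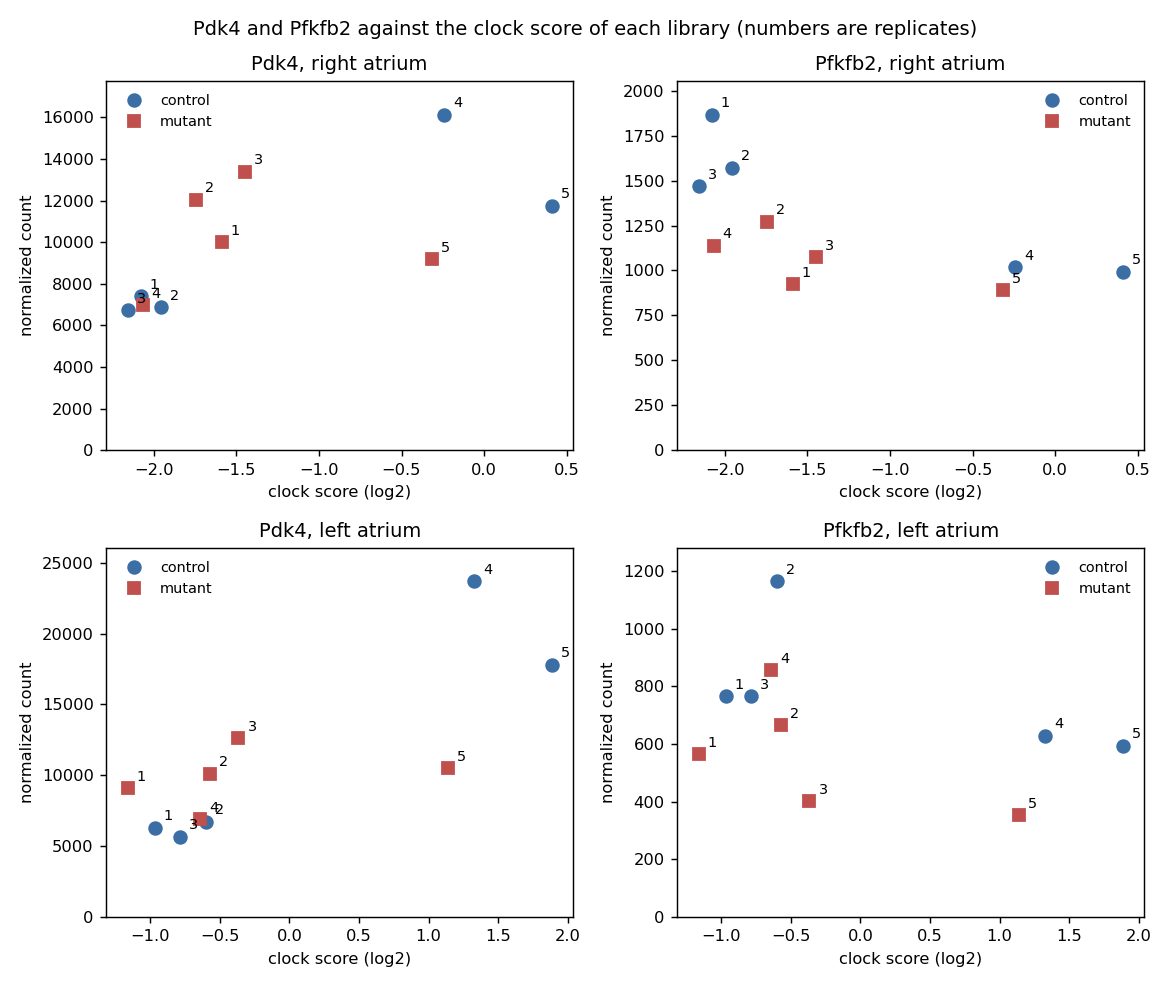
Normalized count of Pdk4 (left panels) and Pfkfb2 (right panels) against the clock score of each library (log2), in right atria (upper panels) and left atria (lower panels), with controls as blue circles, mutants as red squares and replicate numbers beside them. Controls 4 and 5 and mutant 5 lie apart on the right of each panel.

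With the clock score as a covariate in limma the right difference of Pfkfb2 was -0.42 ± 0.09 and passed (adjusted p = 0.013). That fit spanned both sets of libraries, so its slope rests largely on the 3 of shifted phase. Without the 3 libraries of shifted phase, a choice made after seeing the data, the right difference was -0.57 ± 0.12 (adjusted p = 0.0185). There 3 controls stood at 1469 to 1868 against 4 mutants at 924 to 1273. The left differences under the same settings were -0.62 and -0.55 and did not pass (adjusted p = 0.2 and 0.515). Pdk4 became 0.56 ± 0.18 in right and 0.60 ± 0.23 in left atria without those libraries, and neither passed (adjusted p = 0.115 and 0.407). The difference in the Pdk4 to Pdk2 ratio did not pass (exact permutation p = 0.548 right and 0.246 left).

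Ordered by median normalized count per kilobase of the longest transcript, the right controls ran from Aldoa (25966) through Pfkm (7176), Ldha (5581), Slc2a4 (2313), Pdk4 (2123), Hk1 (1238), Hk2 (1127) and Pfkfb2 (326) to Slc2a1 (120). Among neighbours in that order the ranges of Slc2a4 and Pdk4 and those of Hk1 and Hk2 overlapped. In left controls, whose table was scaled on its own, Pdk4 came first (1931), before Ldha (1397), Aldoa (1275), Pfkm (844), Hk2 (432), Slc2a4 (264), Pfkfb2 (170), Hk1 (129) and Slc2a1 (16.8). There the ranges of Ldha and Aldoa, of Slc2a4 and Pfkfb2, and of Pfkfb2 and Hk1 overlapped. Mitochondrial rRNA took 24.1% to 46.7% of reads in left controls and 7.28% to 14.6% in right controls. The part of library content in the left order was not tested. In right mutants Pdk4 and Slc2a4 changed places, with overlapping ranges, and in left mutants Hk1 and Pfkfb2 did, also with overlap.

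For no member did the difference between the atria in the mutant change pass the test. Of 12537 genes tested for that difference, 8 (0.0638%, of which 0.0239% higher and 0.0399% lower) passed with limma, and none was a member. At an unadjusted p under 0.05 there were 0 of the 9, beside 8.14% of all genes. The differences nearest to passing, left change minus right change, were 0.63 ± 0.31 for Aldoa, 0.46 ± 0.23 for Pfkm, 0.52 ± 0.26 for Hk1 and 0.43 ± 0.23 for Slc2a4 (adjusted p = 0.56 for each). Without left mutants 1 and 5 they were 0.15, 0.14, 0.12 and 0.08. DESeq2 and edgeR on the recovered reads also called 0 of the 9. The model took right and left libraries as independent, although deviations of same-numbered libraries correlated across the atria at 0.27 to 0.40 in controls and at -0.07 to 0.20 in mutants. With number within genotype as a block, a choice made after seeing the data, 0 of the 9 passed (lowest adjusted p = 0.428).

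The wider pathway was read from lists of transporters, glycolytic enzymes, pyruvate and glycogen enzymes, insulin and AMPK signalling and their regulators. Of 130 such genes tested in right atria outside the 9, 6 rose and 8 fell (10.8%, beside 6.23% of all genes), and the median change was -0.07. In left atria 0 rose and 2 fell among 125 (1.6%, beside 1.2%), with a median of -0.01. Of the 14 called in right atria, 13 were tested in left atria, and 11 of these (84.6%) had the same sign there, beside 88.1% of all genes called in right atria.

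Among carriers, Slc16a7, the high-affinity monocarboxylate transporter MCT2, fell in both atria. Its mean normalized count was 318 ± 36.9 (SD, n = 5) in right controls and 160 ± 10.7 in right mutants, and 331 ± 52.7 and 147 ± 28.9 in left atria, with no overlap in either. The log2 changes were -0.98 ± 0.10 (adjusted p = 3.85e-05) and -1.18 ± 0.18 (adjusted p = 0.00404). Slc2a1 was the only one of 8 tested glucose carriers to pass in right atria, and none of 6 passed in left atria. Without the libraries of shifted phase the left change of Slc16a7 was -1.12 ± 0.24 and no longer passed (adjusted p = 0.0826).

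None of 8 genes of the phosphofructokinase step and none of 11 genes from aldolase to pyruvate kinase passed in right atria, where their differences ran from -0.35 to 0.33 and from -0.24 to 0.22. Eno3, the muscle enolase, was at -0.16 ± 0.09 and Pfkp, the platelet phosphofructokinase, at -0.18 ± 0.07 there (adjusted p = 0.331 and 0.193). In left atria 9 of 10 lower glycolysis genes had a positive difference (median 0.44, none called), among them Pkm, muscle pyruvate kinase, at 0.53 ± 0.21 (adjusted p = 0.258). Gpi1, the isomerase before phosphofructokinase, stood at 0.77 ± 0.25 there (adjusted p = 0.192). Left mutants 1 and 5 bear on these values too, since without them Pkm and Gpi1 were at 0.17 and 0.30.

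At the pyruvate gate 2 of 12 genes rose in right atria. Pdhx, which anchors the dihydrolipoamide dehydrogenase in the pyruvate dehydrogenase complex, rose by 0.44 ± 0.08 (adjusted p = 0.00528, no overlap), and Pdp1, the phosphatase that reactivates the complex, by 0.46 ± 0.11 (adjusted p = 0.0264). In left atria Pdhx was at 0.61 ± 0.18 (adjusted p = 0.153) and Pdp1 at 0.44 ± 0.21 (adjusted p = 0.303). The call of Pdp1 was lost without right control 2, 3 or 4 or right mutant 3 (adjusted p = 0.062 to 0.0695), and without the libraries of shifted phase (adjusted p = 0.0972). Pdk4 works against Pdp1, and its own change did not pass in either atrium.

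Of 15 glycogen genes, 2 fell in right atria. Gbe1, the branching enzyme, fell by 0.43 ± 0.06 (adjusted p = 0.00135) and Ugp2, which makes UDP-glucose, by 0.37 ± 0.07 (adjusted p = 0.00612), both with no overlap between groups. Their left differences were -0.51 ± 0.15 and -0.59 ± 0.22 and did not pass (adjusted p = 0.137 and 0.223). Without the libraries of shifted phase the right change of Ugp2 was -0.32 ± 0.08 and no longer passed (adjusted p = 0.0515).

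Of 16 genes between the insulin receptor and GLUT4, 2 fell in right atria. Tbc1d1, a Rab GTPase-activating protein that holds GLUT4 inside muscle cells until it is phosphorylated, stood at 10156 ± 526 (SD, n = 5) in right controls and 6644 ± 793 in right mutants, a fall of 0.62 ± 0.08 (adjusted p = 0.000419). It also fell in left atria, by 0.71 ± 0.15 (adjusted p = 0.0263), where 15 of 25 alternative settings kept the call. It was lost there without left control 2, 3, 4 or 5 or left mutant 2, 3 or 5 (log2 -0.74 to -0.67, adjusted p = 0.0541 to 0.1), under quantile normalization, without the libraries of shifted phase and without left mutants 1 and 5 (adjusted p = 0.127, 0.209 and 0.0587). Txnip, an arrestin-like protein that takes GLUT1 and GLUT4 off the surface, fell by 0.53 ± 0.11 in right atria (adjusted p = 0.0148) and was at -0.42 ± 0.18 in left atria (adjusted p = 0.27). Mlxip, the glucose-sensing transcription factor MondoA known to drive Txnip, rose by 0.54 ± 0.10 in right atria (adjusted p = 0.00734) and was at 0.73 ± 0.22 in left atria (adjusted p = 0.161).

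Among the other regulators Ppargc1b, a coactivator of mitochondrial genes, rose by 0.36 ± 0.08 and Epas1, the hypoxia factor HIF-2 alpha, by 0.43 ± 0.12 in right atria (adjusted p = 0.0244 and 0.0477). The call of Epas1 held only without right control 1 or right mutant 1 among the 10 libraries left out in turn (adjusted p = 0.0572 to 0.121 without each of the other 8), and that of Ppargc1b was lost without right mutant 2, 4 or 5 (adjusted p = 0.0652 to 0.0686). None of 7 AMPK genes passed in either atrium, and the most abundant, the catalytic subunit Prkaa2, was at 0.35 ± 0.11 in right atria (adjusted p = 0.0752). Of 16 genes that share fasting and PPAR control with Pdk4, Ucp2 fell by 0.38 ± 0.10 and Lpl, which frees fatty acids from lipoproteins, by 0.47 ± 0.11 in right atria (adjusted p = 0.0355 and 0.0216). Ucp2 lost its call without right control 2, 3 or 4 or right mutant 1, 2 or 3 (adjusted p = 0.0524 to 0.0884), and Lpl without right control 2 or right mutant 4 (adjusted p = 0.0612 and 0.0628). On side routes of glycolysis, 1 of 14 genes passed, Gpd1, which links glycolysis to glycerol-3-phosphate, with a rise of 0.70 ± 0.14 (adjusted p = 0.00849). In left atria Ucp2 was at 0.54 and Ppargc1b at -0.19, the 2 of 13 with the opposite sign.

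The right calls of the wider pathway depended on how the spread was estimated. In a single model of all 4 groups 10 of them did not pass, namely Pdhx, Pdp1, Ugp2, Txnip, Mlxip, Epas1, Ppargc1b, Ucp2, Lpl and Gpd1 (adjusted p = 0.0855 to 0.744). That model gives each gene 1 spread for both atria. The median within-group SD over all genes, on the log2 scale, was 0.175 in right and 0.368 in left atria. Pooling can thus widen right standard errors, as for Gpd1 from 0.14 to 0.41, and narrow left ones. Slc16a7, Gbe1 and Tbc1d1 passed in right atria in all 24 alternatives. Epas1 and Ppargc1b also missed the threshold without the libraries of shifted phase (adjusted p = 0.24 and 0.0631), Epas1 with no filter (0.0574) and Lpl under quantile normalization (0.121).

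Reads may be shared between some of these genes and others. The library kit does not mark strand, and reads from overlapping exons cannot be told apart. Exons of Gm29427 cover 17.4% and those of Yod1 2.12% of the exon bases of Pfkfb2, and Gm26513 covers 10.2% and Senp1 0.539% of those of Pfkm. The shares were 2.995% for Gm12868 on Slc2a1, 1.84% for Hk1os on Hk1 and 0.859% for Fam57b on Aldoa. Gapdh, with 96.6 ± 41.3 normalized counts in right controls against 41065 ± 5282 for Aldoa, has many near-identical copies in the mouse genome, and its counts are uncertain.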

How the data were processed

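RNA of 20 atrial libraries was sequenced by the authors, who prepared libraries with the TruSeq RNA kit v2 from 300 ng of total RNA, aligned reads with STAR to mm10 and normalized with DESeq2. Tool versions, the counting tool and the annotation are not given in the sources used here. The deposited signal values are read counts per gene divided by the DESeq2 size factor of each library, as the authors made them, in 1 table for each atrium. Because the tables were normalized separately, no test compared levels between atria. Only Bmp10 was set side by side, as a marker of the side. Columns with the authors' own log2 fold changes and adjusted p-values were not used. All per-sample columns were mapped to samples.

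Every value was a whole multiple of the value of 1 read, within 0.01, in 100% of cases, although a left mutant library with a size factor near 1 gives little power to that check. Right atrium entries without values and repeated entries were dropped. Genes with a mean of at least 10 were tested on log2(value + 1) with limma 3.58.1 (R 4.3.3, trend), with Benjamini-Hochberg adjustment over all genes tested in the comparison and a threshold of 0.05. The difference between atria was a contrast of 4 groups. Log2 ratios of related genes were compared by exact two-sided permutation tests over 10 ratios. The fits were tested on simulated data. Alternatives were other pseudocounts, filters and scalings, edgeR 4.0.16 and DESeq2 1.42.0 on the recovered reads, covariates for the clock score and mitochondrial rRNA, a replicate block, all groups in a single model and leaving out each library. The libraries of shifted clock phase, and left mutants 1 and 5, were left out, and number within genotype was used as a block for the difference between atria, as choices made after seeing the data.

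The 9 genes, the pathway and marker lists and the tests were chosen with earlier results of these data known. Named are the 9 genes, every called gene of a pathway list but 1 that is not reported here, up to 3 abundant genes of a list without calls, and for each of the 9 up to 3 genes of most similar deviations among genes with a mean of at least 50, left out for Pdk4 and Pfkfb2 because the libraries form separate sets of clock phase. Gpi1 and Gapdh were named after their values were seen. Symbols, positions and exon overlaps came from the GENCODE annotation of GRCm38, and promoters from RefSeq tables of GRCm38.p6, with 17 entries for 8 of the 9 genes. Depth was 17.5 to 26.8 M reads in right and 19.1 to 24.8 M in left libraries, of which mitochondrial rRNA took 7.28% to 15.7% and 19.5% to 46.7%.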

Additional observations from a re-analysis of the deposited data

Results flagged for a closer look

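In groups of 5 libraries, 1 library was set apart from the other 4 by a gap that Dixon's test calls too wide in 2 of the 36 groups of values examined, a test that chance alone passes in about 1 in 20 groups. Hk1 was lowest in right mutant 1, at 3954 normalized counts, while the other right mutants held 5025 to 5135. Aldoa was highest in left control 4, at 2983, while the other left controls held 1728 to 1983.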

How the results depend on the processing

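Of 1621 values recomputed, 1466 kept their direction and their side of the threshold, 58 turned direction (none larger than 0.189 to begin with), 37 came to pass and 60 no longer passed, and the cause was not tested. Slc2a1 passed in right atria in all 24 alternatives. The count of members passing in right atria was 2 under quantile normalization (with Ldha) and 2 with the clock covariate or without the libraries of shifted phase (with Pfkfb2). In left atria it was 1, Slc2a1, with DESeq2, in a single model of 4 groups and without left mutant 4 (0 to 1 over libraries left out). The count of ratios passing, 2, ran from 0 to 5 over libraries left out, 0 without right mutant 1, 3, 4 or 5 and 5 without right mutant 2. A replicate block made Slc2a1 pass in left atria (count 1, adjusted p = 0.0343) and changed no other member's call. Of the named pathway genes, Pdp1 and Epas1 lost their right calls under the block (adjusted p = 0.0597 and 0.0624). The replicate numbers were not shown to pair libraries, since deviations of same-numbered libraries correlated at -0.03 to 0.27 in right and 0.03 to 0.32 in left atria. Across atria they correlated at 0.27 to 0.40 in controls, each over 0.1, but at -0.07 in mutant 1 and up to 0.20 in the other mutants.

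Values that turned direction in right atria were Slc2a4 at 0.042 and Aldoa at 0.060 under quantile normalization, and 0.077 and 0.0043 without shifted libraries. In left atria they were Hk2 at 0.043 and Pdk4 at 0.16 under quantile normalization, Pdk4 at 0.20 with the clock covariate, 0.019 with the mitochondrial covariate and 0.60 without shifted libraries, and Epas1 at -0.042 and Ppargc1b at 0.011 without shifted libraries. For the difference between atria, Slc2a1 was at 0.028 with pseudocount 5, 0.040 with the mitochondrial covariate, 0.24 without shifted libraries and 0.21 without left mutants 1 and 5. Under those last settings Hk2 was at -0.046 and -0.079 and Pfkfb2 at 0.018 and 0.040. Pdk4 was at 0.047 without shifted libraries. Ldha was at 0.013 with TMM, 0.012 with edgeR, 0.014 without shifted libraries, 0.087 under quantile normalization, 0.019 with the clock covariate and 0.016 with the mitochondrial covariate. Over libraries left out, right Slc2a4 ran from -0.063 to 0.021, left Pdk4 from -0.26 to 0.25 and left Epas1 from -0.0024 to 0.20. The left ratio of Ldha to Ldhb ran from -0.15 to 0.18. The differences between atria ran from -0.20 to 0.081 for Slc2a1, -0.045 to 0.15 for Hk2, -0.31 to 0.012 for Pfkfb2, -0.087 to 0.056 for Ldha and -0.39 to 0.12 for Pdk4.

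Counts over all genes were 267 for right atria in a single model of 4 groups, which pools the spread of both atria. For left atria they were 431 with DESeq2, 306 with the mitochondrial covariate, 693 with the block, 1235 in the single model, 59 without shifted libraries, 78 without left mutants 1 and 5, and 71 to 371 over libraries left out. For the difference they were 5 under quantile normalization, 38 with DESeq2, 0 without shifted libraries, 2 without left mutants 1 and 5, 2 with number within genotype as a block, and 0 to 11 over libraries left out. The correlation of members with the clock score was not run, because the libraries form separate sets of 7 and 3. With 5 libraries a group, left Slc2a1 at 20.6 to 79.2 normalized counts was the value nearest to the limit of depth, and a minimum mean of 50 left it untested.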
